A study of Mus musculus with 8 samples.

Results

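The 37 genes described here encode actins, proteins that bind, bundle and anchor actin filaments, the myosin chains that pull on them, and the transcription factor SRF with its LIM partners. They were taken by gene symbol from a list of actin cytoskeleton and SRF-type contractile genes, and all 37 were found among the 21240 genes of the count table. Of the 37, 31 had enough reads to be tested, among 11835 tested genes. The cells were wild-type NMuMG cells, an established epithelial line from normal mouse mammary gland, and all cultures were grown in medium with serum and insulin to below full confluency. RNA was sequenced after 6 h or 30 h with BRM014, an inhibitor of the ATPases of the SWI/SNF chromatin remodelling complexes, or with the vehicle DMSO for the same times. Each of the 4 groups (BRM014 6 h, BRM014 30 h, DMSO 6 h and DMSO 30 h) had 2 libraries, and the dose of BRM014 is not given in the sources used here. The labels call the libraries biological replicates without naming separate cultures, so the p-values measure the spread between these libraries, which may be technical in part.

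Actin monomers assemble into filaments that give an epithelial cell its shape, its junctional belt and its stress fibres. Tropomyosins, calponins and caldesmon coat the filaments, alpha-actinins and filamins crosslink them, myosin II contracts them, and talin, vinculin and zyxin tie them to adhesions. Free actin monomers hold the MRTF coactivators in the cytoplasm. When monomers are used up by assembly, MRTF enters the nucleus and binds SRF, which recognises the CArG box, a short element with CC and GG on either side of a run of A and T. Many cytoskeletal genes, Srf and cytoplasmic actins included, are classical SRF targets, and smooth muscle and myoepithelial cells use the same system to make their contractile isoforms.

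Total counts ran from 17859693 to 29955366 per library, and replicates correlated with r = 0.990 to 0.994 across genes on the log2 scale, where genes are not independent replicates. The 37 genes took 1.63% to 2.11% of all counts. Their share was 2.05% and 2.07% in BRM014 6 h, 1.89% and 1.88% in BRM014 30 h, 2.11% and 1.89% in DMSO 6 h, and 1.75% and 1.63% in DMSO 30 h. Of 7 epithelial markers, Krt8, Krt18 and Cdh1 were abundant, while Epcam and Cldn7 were at 0 counts in all 8 libraries and Krt7 and Esrp1 were too low to test. The summed epithelial level was 5259 to 5726 CPM (counts scaled to a common library size with TMM factors) in BRM014 6 h, 6780 to 8003 CPM in BRM014 30 h, 5186 to 5647 CPM in DMSO 6 h and 4356 to 4514 CPM in DMSO 30 h. Summed fibroblast, endothelial and adipocyte markers were at most 2.77, 0.257 and 0.298 CPM in every library.

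FDR stands for the p-value of edgeR's quasi-likelihood test after Benjamini-Hochberg adjustment over all tested genes, and values after ± are standard errors of a log2 fold change. After 6 h of BRM014, 17 of the 31 tested genes (54.8%) passed at an FDR below 0.05, against 23.8% of all tested genes. The genes, and the wider lists below, were chosen with earlier results of these data known. This share and those that follow therefore describe the genes and do not test the lists. Srf, the cytoplasmic actins Actb and Actg1, Cnn2 and Lima1 were higher, 5 genes in all, against 9.35% of all tested genes. Lower were 12 genes, against 14.4% of all tested genes: Capg, Cnn3, Tagln2, Cald1, Tnnt2, Myl6, Actn1, Flna, Tln1, Pdlim7, Fhl3 and Abi3. The 12 lower genes became 7 without BRM014 6 h replicate 1, BRM014 6 h replicate 2 or DMSO 6 h replicate 1, and the 5 higher genes became 3 without BRM014 6 h replicate 2 or DMSO 6 h replicate 2. The median log2 fold change of the 31 genes was -0.20, and that of all tested genes was -0.01. With library totals in place of TMM these medians were -0.12 and 0.07. With the added condition of a log2 fold change of at least 0.58 in size, 11 genes remained called, against 14% of all tested genes.

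After 30 h, 17 of the 31 genes again passed (54.8%), against 35.9% of all tested genes, but the split was 9 higher (background 16.8%) and 8 lower (background 19.1%). Higher were Actb, Tpm1, Cnn2, Cald1, Lima1, Mylk, Actn1, Vcl and Pdlim5, and lower were Capg, Tpm4, Tnnt2, Myl6, Flna, Fhl1, Fhl3 and Abi3. The median was -0.02 for the 31 genes, 0.02 with library totals in place of TMM, and -0.01 for all tested genes. With the added fold condition 8 genes remained, against 20.2% of all tested genes. No library enters both of these comparisons. Actb, Cnn2 and Lima1 passed as higher at both times (9.68% of the 31 genes, against 6.04% of all tested genes). Capg, Tnnt2, Myl6, Flna, Fhl3 and Abi3 passed as lower at both times (19.4%, against 9.7%). Cald1 and Actn1 passed as lower at 6 h and as higher at 30 h. Those last 2 of 31 genes (6.45%) stand beside 52 of 11835 tested genes (0.439%) with the same order of calls. Each rests on a fragile call, that of Actn1 at 6 h and that of Cald1 at 30 h, as given below. Pfn1, Cfl1, Tpm3, Myh9, Myh10, Actn4, Zyx and Fhl2 passed at neither time.

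**Figure D1:**
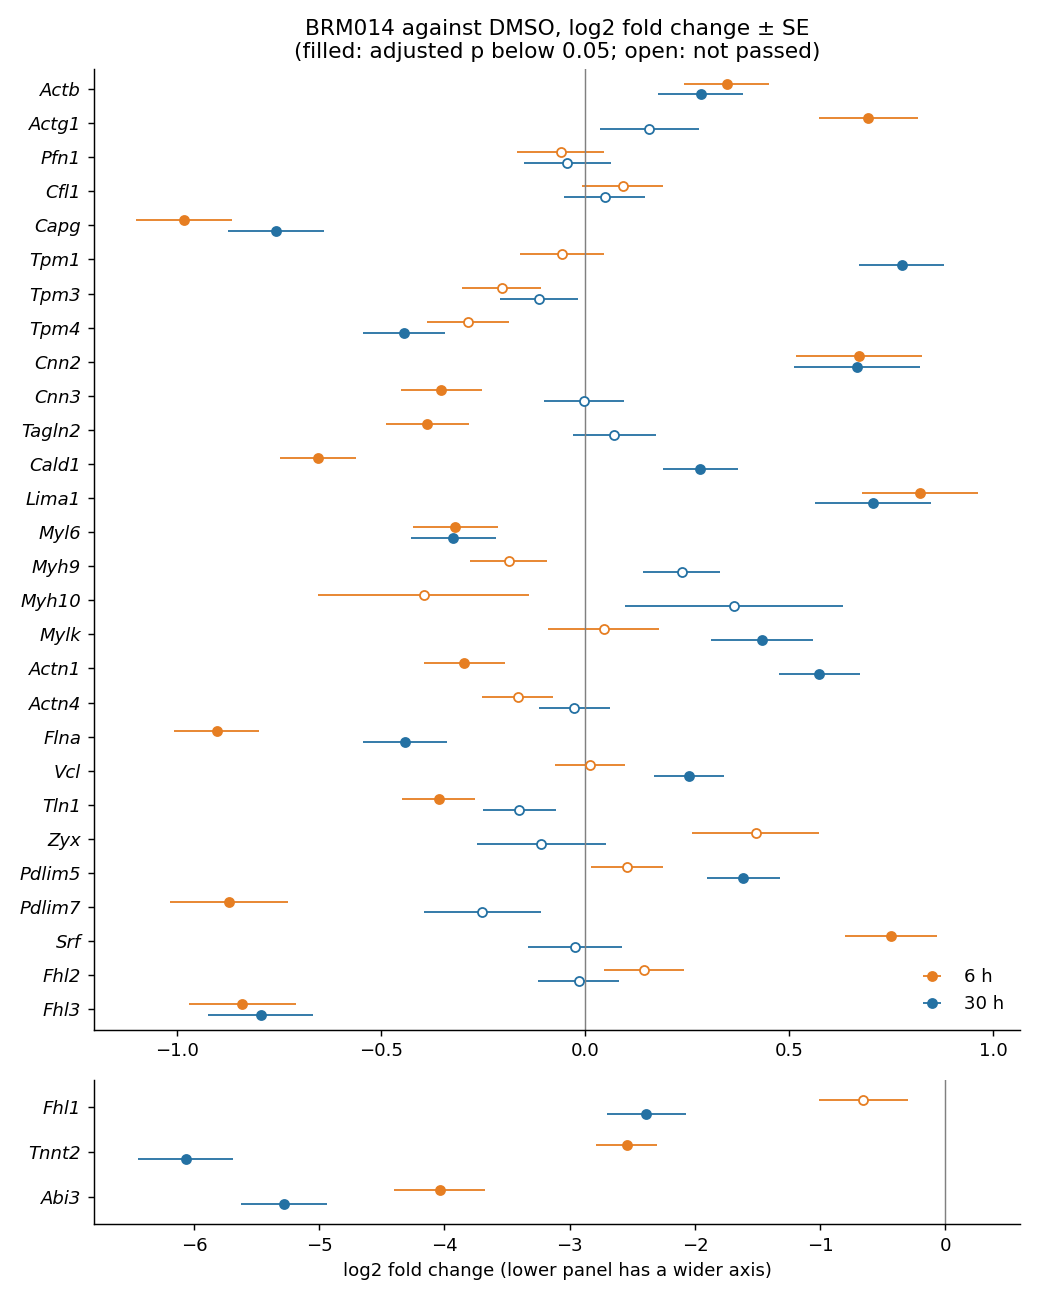
Log2 fold change of BRM014 against DMSO with its standard error for the 31 tested genes at 6 h (orange) and 30 h (blue), filled where the FDR was below 0.05, with a wider axis for the lower panel. Srf and Actg1 are filled at 6 h and open at 30 h, and Cald1 and Actn1 lie left of 0 at 6 h and right of 0 at 30 h.

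Srf encodes serum response factor itself. Its level was 94.1 and 90.3 CPM in BRM014 6 h libraries, against 60.8 and 48.9 CPM in DMSO 6 h libraries, without overlap. At 30 h it was 48.4 and 45.6 CPM with BRM014, against 48.8 and 46.7 CPM with DMSO, and the groups overlapped. The log2 fold change was 0.75 ± 0.11 (SE) at 6 h (FDR = 0.000327) and -0.02 ± 0.11 at 30 h (FDR = 0.893). The test of the difference between these effects passed (-0.77 ± 0.16, FDR = 0.0117), but not without BRM014 6 h replicate 1 (-0.74, FDR = 0.0614), without BRM014 30 h replicate 2 (-0.72, FDR = 0.0604) or without DMSO 6 h replicate 2 (-0.61, FDR = 0.0508).

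Actb and Actg1 encode the beta and gamma cytoplasmic actins that make up filaments in non-muscle cells. Actg1 was at 735 and 896 CPM in BRM014 6 h, against 565 and 443 CPM in DMSO 6 h, and at 442 and 462 CPM in BRM014 30 h, against 409 and 402 CPM in DMSO 30 h. All libraries of BRM014 lay above those of DMSO of the same time, with a log2 fold change of 0.69 ± 0.12 at 6 h (FDR = 0.000994) and 0.16 ± 0.12 at 30 h (FDR = 0.339). Its difference between the times was -0.54 ± 0.17 and did not pass (FDR = 0.0862), except with library totals (-0.59, FDR = 0.0459) among the scalings. Actb was at 4897 and 4873 CPM in BRM014 6 h, against 4183 and 3500 CPM in DMSO 6 h, and at 3785 and 4037 CPM in BRM014 30 h, against 3431 and 2997 CPM in DMSO 30 h. It was also above DMSO in every library, by 0.35 ± 0.10 at 6 h (FDR = 0.0272) and 0.28 ± 0.10 at 30 h (FDR = 0.0482). Both Actb calls were fragile, with 0.22 (FDR = 0.186) at 6 h without DMSO 6 h replicate 2 and 0.19 (FDR = 0.291) at 30 h without DMSO 30 h replicate 2. They also ended without either BRM014 library of the same time (FDR = 0.131 and 0.140 at 6 h, 0.0712 and 0.201 at 30 h). Cytoplasmic actins, cofilin, profilin, Myl6 and the tropomyosins have close relatives or processed copies in the genome, and the treatment of reads with several matches is not given in the sources used here, so their levels are uncertain to that extent.

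The smooth muscle actins and the calponin, transgelin, tropomyosin and light chain isoforms of contractile cells had few or no counts. Acta2 had 3 counts over all 8 libraries, Actg2 5, Cnn1 9, Tagln 30 and Tpm2 27, and Myl9 was listed at 0 in every library. A 0 in all 8 libraries, as for Myl9, Epcam and Cldn7, does not by itself show that a gene was not expressed. A limit of 3 counts corresponds to 0.0978 to 0.163 CPM in these libraries, for counting error only. Acta2, the smooth muscle alpha actin, had 0 and 1 counts in BRM014 6 h, against 0 and 0 in DMSO 6 h, and 0 and 0 in BRM014 30 h, against 1 and 1 in DMSO 30 h. Tpm2, a muscle-type tropomyosin, had 8 and 11 counts in BRM014 30 h, against 1 and 1 in DMSO 30 h. That is a ratio of 7.94, with an exact 95% interval of 1.92 to 70.3 for counting error only, and an FDR of 0.0669 in the fit without the filter on low counts, the lowest of the 5 genes with any count in these comparisons. Of 5 smooth muscle markers, Lmod1 was at 0 and Myh11, Des and Synpo2 were near 0, and of 5 basal and myoepithelial markers Krt14 alone was tested. The summed basal level was 0.938 to 2.26 CPM in BRM014 6 h, against 9.30 to 13.01 CPM in DMSO 6 h, and 0.0652 to 0.214 CPM in BRM014 30 h, against 3.54 to 8.48 CPM in DMSO 30 h. It moved with the treatment in the direction of Tnnt2 and Abi3 below, and its part in the results was not tested. In bulk RNA, fewer cells of a type and less RNA per cell cannot be told apart.

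The promoter windows of these genes were searched for the CArG box, the site SRF binds, in the RefSeq promoter table (build GRCm38.p6, from 250 bases before to 50 after each transcript start). The table held 33 of the 37 genes in 40 windows, without Actb, Actg2, Tagln and Abi3. A CArG box was found in 10 of the 40 windows (25%), against 535 of 32851 windows of all genes (1.63%). Both strands were searched, and no CArG box overlapped a match of the other motifs. The genes were listed as SRF-type at the outset, and a match is not a measured binding site. Only exact matches within these windows were counted, so a window without a match does not show that the gene lacks a CArG site. The 250 bases before the start are printed for the 4 of the 5 genes higher at 6 h that have a window in the table, and for Myl6 and Fhl1, which hold a box and were lower at 1 or both times. CArG boxes are in capitals, and each sequence runs 5′ to 3′ on the gene's own strand.
Srf promoter, chr17:46556163-46556412, minus strand: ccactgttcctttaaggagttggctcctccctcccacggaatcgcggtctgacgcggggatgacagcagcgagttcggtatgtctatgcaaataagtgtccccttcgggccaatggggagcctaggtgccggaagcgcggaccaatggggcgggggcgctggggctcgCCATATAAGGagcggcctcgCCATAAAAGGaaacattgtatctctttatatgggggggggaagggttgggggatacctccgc
Actg1 promoter, chr11:120348496-120348745, minus strand: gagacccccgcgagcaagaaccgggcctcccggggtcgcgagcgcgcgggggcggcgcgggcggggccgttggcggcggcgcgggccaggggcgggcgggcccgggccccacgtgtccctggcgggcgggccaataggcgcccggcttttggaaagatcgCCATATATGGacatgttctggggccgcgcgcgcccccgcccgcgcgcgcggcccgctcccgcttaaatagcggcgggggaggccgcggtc
Cnn2 promoter, chr10:79988350-79988599, plus strand: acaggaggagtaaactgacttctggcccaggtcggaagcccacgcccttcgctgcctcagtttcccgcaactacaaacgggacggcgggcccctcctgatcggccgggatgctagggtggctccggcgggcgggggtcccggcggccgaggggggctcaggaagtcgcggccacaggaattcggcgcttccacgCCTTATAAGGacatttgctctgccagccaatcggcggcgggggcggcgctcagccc
Lima1 promoter, chr15:99820150-99820399, minus strand: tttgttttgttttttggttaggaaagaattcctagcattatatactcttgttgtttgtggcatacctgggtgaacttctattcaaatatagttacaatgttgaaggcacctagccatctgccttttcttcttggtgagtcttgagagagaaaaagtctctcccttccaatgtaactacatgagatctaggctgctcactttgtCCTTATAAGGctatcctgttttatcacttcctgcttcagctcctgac
Myl6 promoter, chr10:128493010-128493259, minus strand: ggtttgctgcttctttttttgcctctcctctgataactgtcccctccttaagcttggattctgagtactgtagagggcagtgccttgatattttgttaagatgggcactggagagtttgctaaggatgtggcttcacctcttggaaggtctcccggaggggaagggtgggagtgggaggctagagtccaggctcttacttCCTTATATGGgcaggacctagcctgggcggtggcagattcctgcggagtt
Fhl1 promoter, chrX:56779433-56779682, plus strand: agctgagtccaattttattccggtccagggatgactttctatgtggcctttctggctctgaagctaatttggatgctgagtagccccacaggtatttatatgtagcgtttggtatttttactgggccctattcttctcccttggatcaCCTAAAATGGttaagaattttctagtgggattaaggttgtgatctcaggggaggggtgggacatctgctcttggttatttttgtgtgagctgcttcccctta

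The boxes of Srf lay 82 to 73 and 62 to 53 bases before the start, that of Actg1 90 to 81, that of Cnn2 56 to 47 and that of Lima1 47 to 38. Myl6 had its box 50 to 41 bases before the start of the second of its windows in the table, and Fhl1 102 to 93 bases before its start. At 6 h, a box was present in 4 of 4 higher genes with a window, in 1 of 11 lower genes (Myl6) and in 3 of 14 genes that did not pass (Vcl, Fhl1 and Fhl2). At 30 h the counts were 3 of 8 higher genes (Cnn2, Lima1 and Vcl), 2 of 7 lower genes (Myl6 and Fhl1) and 3 of 14 that did not pass (Actg1, Srf and Fhl2). Among the untested genes Myl9 had a box and no count in any library. Of the other motifs, the TEAD motif CATTCC was in 27.5% of the 40 windows, against 14.7% of all windows, the AP-1 motif TGANTCA in 10%, against 7.81%, and the Sp1 box GGGCGG in 60%, against 35.7%. These shares and the counts by call are descriptions, with no test. Boxes by call were not counted over all tested genes.

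**Figure D2:**
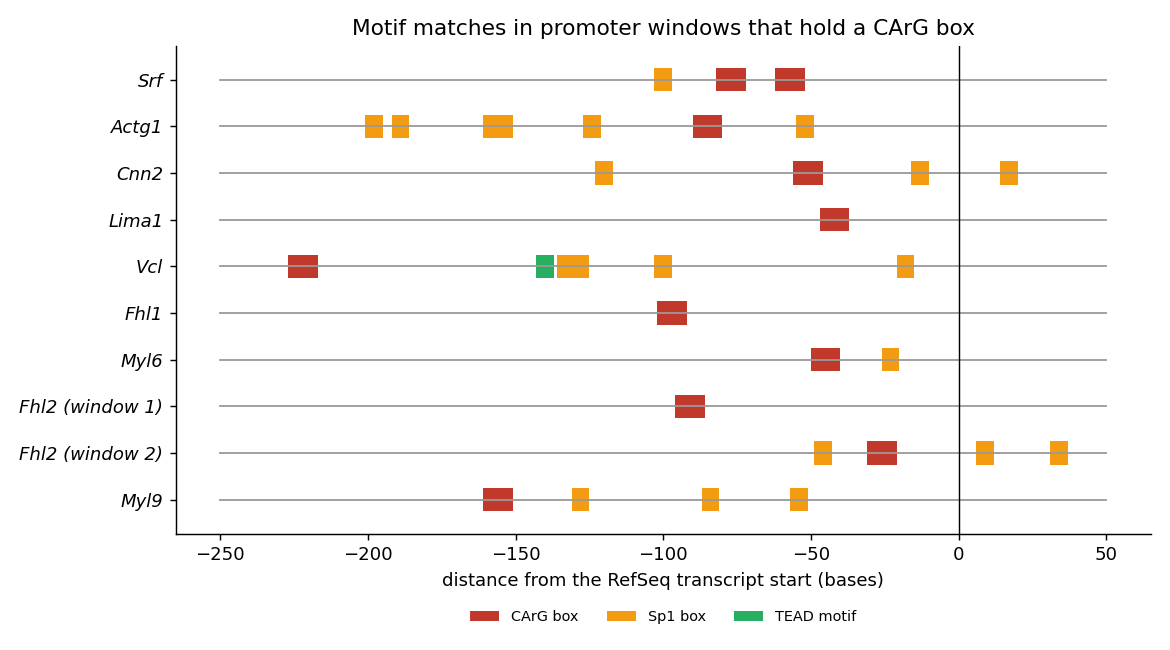
Matches of the CArG box, the Sp1 box and the TEAD motif in the 10 promoter windows that hold a CArG box, by distance in bases from the RefSeq transcript start. The CArG boxes of Srf, Actg1, Cnn2 and Lima1 all lie between 90 and 38 bases before the start, and Srf has 2. The box of Myl6, a gene lower at both times, lies in the same range.

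Among the genes for monomer binding and severing, Capg fell and Pfn1 and Cfl1 did not pass. Capg, a gelsolin relative that caps growing filament ends, was at 49.7 and 47.9 CPM in BRM014 6 h, against 96.8 and 95.9 CPM in DMSO 6 h. At 30 h it was at 47.8 and 44.5 CPM with BRM014, against 87.4 and 68.6 CPM with DMSO, again without overlap. The log2 fold change was -0.98 ± 0.12 (FDR = 4.87e-05) and -0.76 ± 0.12 (FDR = 0.000242). Pfn1, profilin, which loads monomers onto filament ends, and Cfl1, cofilin, which severs filaments, had log2 fold changes of -0.06 and 0.09 at 6 h and of -0.04 and 0.05 at 30 h.

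The proteins that coat or stabilise filaments moved in both directions. Lima1 (EPLIN), which bundles filaments and slows their disassembly, was at 164 and 201 CPM in BRM014 6 h, against 94.3 and 113 CPM in DMSO 6 h, and at 240 and 276 CPM in BRM014 30 h, against 137 and 179 CPM in DMSO 30 h. Every BRM014 library lay above those of DMSO of the same time (0.82 ± 0.14, FDR = 0.000961 at 6 h, and 0.71 ± 0.14, FDR = 0.00169 at 30 h). Cnn2, the calponin of non-muscle cells, was at 219 and 227 CPM in BRM014 6 h, against 165 and 115 CPM in DMSO 6 h, and at 168 and 158 CPM in BRM014 30 h, against 117 and 88.6 CPM in DMSO 30 h. It rose by 0.67 ± 0.15 at both times (FDR = 0.00632 at 6 h and 0.00459 at 30 h). The 6 h call of Cnn2 ended without BRM014 6 h replicate 2 (0.65, FDR = 0.0508) and without DMSO 6 h replicate 2 (0.43, FDR = 0.0746). Its relative Cnn3 and the transgelin gene Tagln2 fell at 6 h (-0.35 ± 0.10, FDR = 0.0197, and -0.39 ± 0.10, FDR = 0.0140), with values of -0.0025 and 0.07 at 30 h. Neither 6 h call held without DMSO 6 h replicate 1 (-0.22, FDR = 0.245, and -0.23, FDR = 0.192) or without either BRM014 6 h library (FDR = 0.0721 to 0.188), and that of Cnn3 also ended with library totals (-0.27, FDR = 0.0546).

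Cald1, which encodes caldesmon, a brake on actin-myosin contraction, changed direction between the times. It was at 432 and 380 CPM in BRM014 6 h, against 644 and 635 CPM in DMSO 6 h, and at 637 and 598 CPM in BRM014 30 h, against 496 and 519 CPM in DMSO 30 h. The groups did not overlap at either time, with BRM014 below DMSO at 6 h (-0.65 ± 0.09, FDR = 0.000198) and above it at 30 h (0.28 ± 0.09, FDR = 0.0293). The difference between the effects was 0.94 ± 0.13 (FDR = 0.000980). The 30 h call alone ended without BRM014 30 h replicate 1 (0.24, FDR = 0.130), DMSO 30 h replicate 1 (0.26, FDR = 0.110) or DMSO 30 h replicate 2 (0.31, FDR = 0.0563).

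Tpm1, which encodes tropomyosins found in stress fibres among other places, rose at 30 h. Its levels were 976 and 1033 CPM in BRM014 6 h, against 1141 and 948 CPM in DMSO 6 h, and 1481 and 1386 CPM in BRM014 30 h, against 872 and 803 CPM in DMSO 30 h. The groups overlapped at 6 h (-0.06 ± 0.10, FDR = 0.743) and stood apart at 30 h (0.78 ± 0.10, FDR = 6.64e-05), and the difference passed (0.83 ± 0.15, FDR = 0.00408). Tpm4, a cytoplasmic tropomyosin, had -0.29 ± 0.10 at 6 h (FDR = 0.0537) and fell by 0.44 ± 0.10 on the log2 scale at 30 h (FDR = 0.00379; -0.33, FDR = 0.0559 without BRM014 30 h replicate 2). Tpm3 did not pass at either time (-0.20 and -0.11).

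Tnnt2, the troponin T of heart muscle, which binds tropomyosin on thin filaments, showed the lowest 30 h value of the 31 genes. It had 8.11 and 7.29 CPM in BRM014 6 h, against 51.6 and 38.2 CPM in DMSO 6 h. At 30 h it had 0.321 and 0.326 CPM with BRM014 (6 and 10 counts), against 28.6 and 15.8 CPM with DMSO (526 and 361 counts). The treated libraries were far below the DMSO libraries at both times, although the DMSO replicates differed from each other. The log2 fold change was -2.54 ± 0.24 at 6 h (FDR = 7.64e-06) and -6.07 ± 0.38 at 30 h (FDR = 8.51e-08), and the difference was -3.52 ± 0.50 (FDR = 0.00102).

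**Figure D3:**
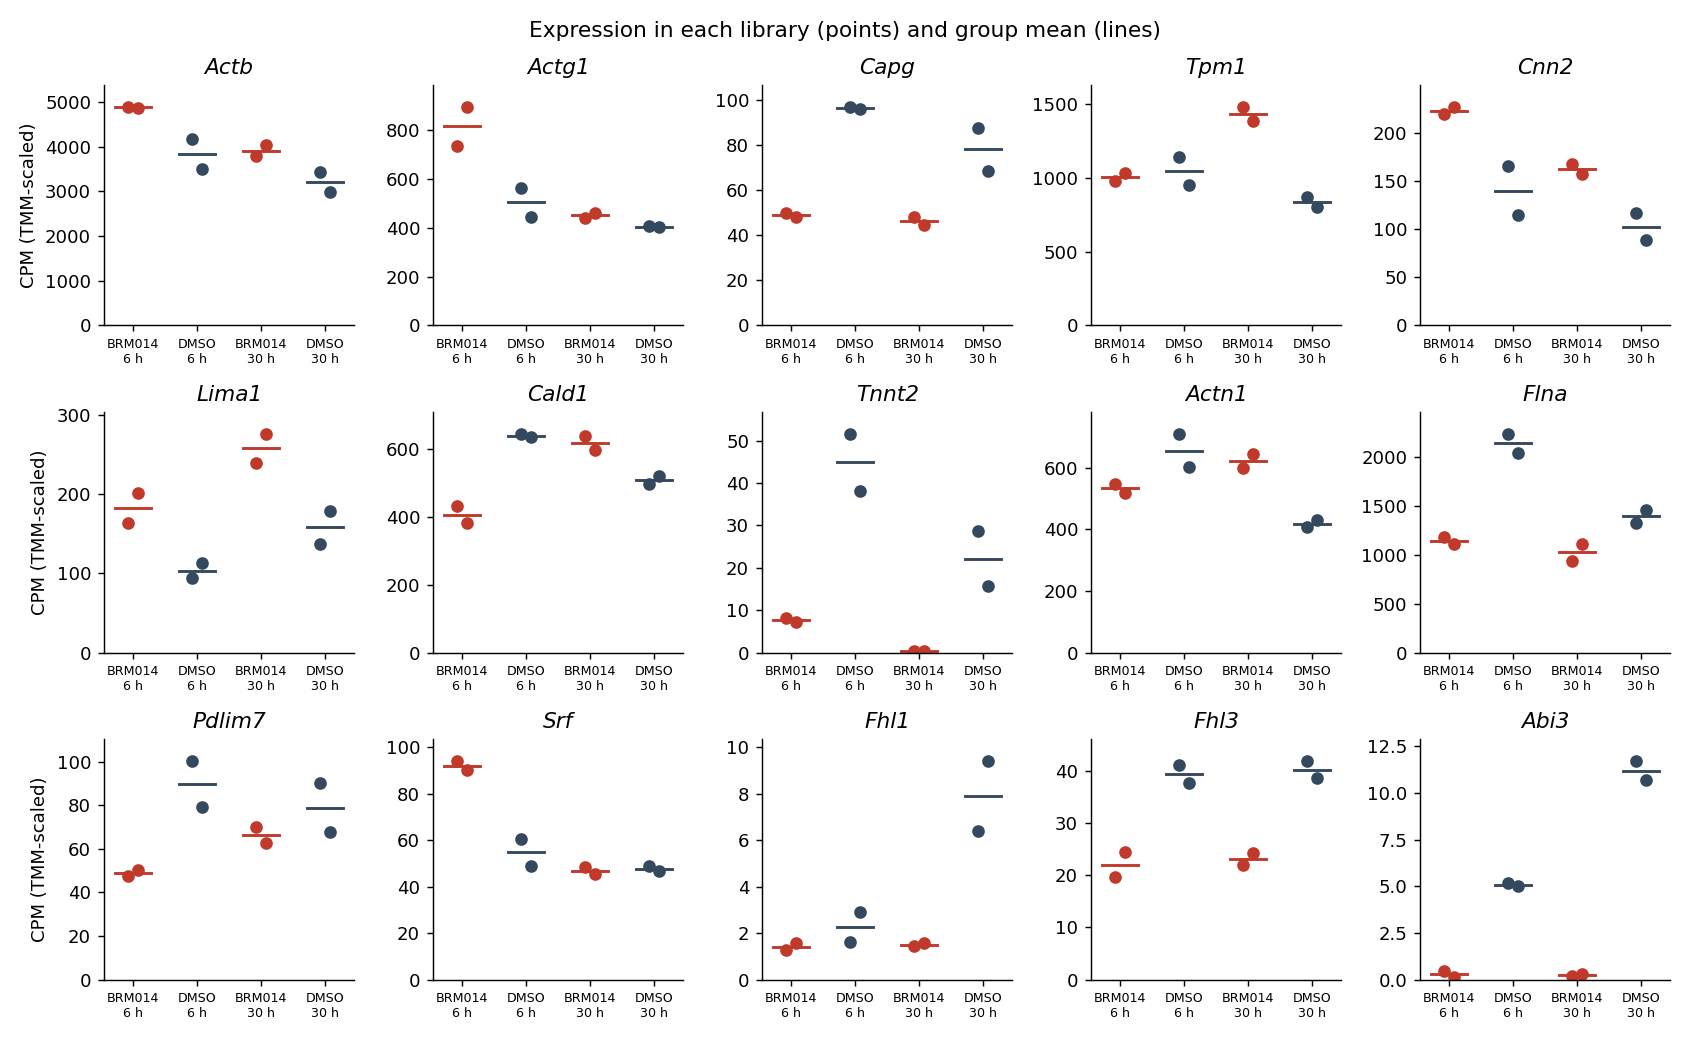
Level in each library (points; CPM, TMM-scaled) and group mean (lines) for 15 genes, with BRM014 in red and DMSO in dark blue at 6 h and 30 h, n = 2 libraries a group. Srf stands at 94.1 and 90.3 CPM in BRM014 6 h, above its other libraries, and Cald1 lies below DMSO at 6 h and above it at 30 h.

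Of the myosin II genes, Myl6, the essential light chain, fell at both times by 0.32 ± 0.10 on the log2 scale (FDR = 0.0422 at 6 h and 0.0285 at 30 h). Its levels were 168 and 170 CPM in BRM014 6 h, against 226 and 196 CPM in DMSO 6 h, and 153 and 146 CPM in BRM014 30 h, against 203 and 172 CPM in DMSO 30 h. The Myl6 calls were among the most fragile, with -0.18 (FDR = 0.373) at 6 h without DMSO 6 h replicate 1 and -0.19 (FDR = 0.237) at 30 h without DMSO 30 h replicate 1. They were lost under 7 and 6 of 16 alternatives, among them leaving out BRM014 6 h replicate 1 or 2 at 6 h (FDR = 0.191 and 0.186), BRM014 30 h replicate 1 or 2 at 30 h (FDR = 0.0670 and 0.153), and library totals at 6 h (FDR = 0.117). Mylk, the kinase that switches on smooth muscle and non-muscle myosin II, was at 44.5 and 47.8 CPM in BRM014 30 h, against 30.4 and 37.9 CPM in DMSO 30 h. It rose at 30 h (0.43 ± 0.12, FDR = 0.0156), but not without BRM014 30 h replicate 2 (0.39, FDR = 0.0913) or DMSO 30 h replicate 1 (0.29, FDR = 0.123), and had 0.05 ± 0.14 at 6 h. The heavy chain genes Myh9 and Myh10 had -0.19 and -0.39 at 6 h and 0.24 and 0.37 at 30 h, none of which passed (Myh9 at 30 h, FDR = 0.0687). With library totals the 30 h value of Myh9 was 0.27 and passed (FDR = 0.0252).

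Of 8 crosslinkers and adhesion proteins, 4 were lower and none higher at 6 h (background 14.4% lower and 9.35% higher), and 3 were higher and 1 lower at 30 h (background 16.8% higher and 19.1% lower). Flna, filamin A, which joins filaments into networks and links them to integrins, was at 1182 and 1110 CPM in BRM014 6 h, against 2238 and 2043 CPM in DMSO 6 h. At 30 h it was at 942 and 1114 CPM with BRM014, against 1327 and 1464 CPM with DMSO. BRM014 was below DMSO without overlap at both times (-0.90 ± 0.10, FDR = 3.50e-05, and -0.44 ± 0.10, FDR = 0.00474), although the 30 h call ended without BRM014 30 h replicate 1 (-0.32, FDR = 0.0564). Pdlim7, a PDZ and LIM adaptor on filaments, was at 47.4 and 50.5 CPM in BRM014 6 h, against 100.2 and 79.1 CPM in DMSO 6 h, and at 69.9 and 62.7 CPM in BRM014 30 h, against 90.3 and 67.5 CPM in DMSO 30 h. It fell at 6 h (-0.87 ± 0.15, FDR = 0.000684), and the groups overlapped at 30 h (-0.25 ± 0.14, FDR = 0.194).

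Actn1, alpha-actinin 1, which crosslinks stress fibres, is given by library although its fold missed the bound of 0.58 for this. The same holds for Myl6, Mylk and Zyx, and these choices were made after the values were seen. It was at 549 and 520 CPM in BRM014 6 h, against 710 and 601 CPM in DMSO 6 h, and at 599 and 646 CPM in BRM014 30 h, against 407 and 429 CPM in DMSO 30 h. As with Cald1, BRM014 was below DMSO at 6 h (-0.30 ± 0.10, FDR = 0.0458) and above it at 30 h (0.57 ± 0.10, FDR = 0.000590), and the difference was 0.87 ± 0.14 (FDR = 0.00249). The 6 h call was lost under 9 of 16 alternatives (-0.14, FDR = 0.443 without DMSO 6 h replicate 1; FDR = 0.137 and 0.287 without BRM014 6 h replicate 1 and replicate 2; FDR = 0.107 with library totals and 0.0561 with RLE factors), whereas the 30 h call and the difference held under all that were run. Leaving out a library of the other time also ended some calls narrowly: those of Actb, Myl6 and Vcl at 30 h without either BRM014 6 h library (FDR = 0.0513 to 0.0830), those of Myl6 and Actn1 at 6 h without either BRM014 30 h library (FDR = 0.0541 to 0.0556), and that of Actn1 at 6 h without DMSO 30 h replicate 2 (FDR = 0.0643). Actn4 did not pass (-0.16 and -0.03).

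Vcl, vinculin, and Pdlim5, which binds alpha-actinin, rose at 30 h (0.25 ± 0.09, FDR = 0.0338, and 0.39 ± 0.09, FDR = 0.00400), with 0.01 and 0.10 at 6 h. The Vcl call was lost under 7 of 16 alternatives, with FDR = 0.150 without BRM014 30 h replicate 2, 0.132 without DMSO 30 h replicate 1 and 0.0592 without DMSO 30 h replicate 2, and the Pdlim5 call under none. Tln1, talin, which activates integrins and binds vinculin, fell at 6 h (-0.36 ± 0.09, FDR = 0.0105), with -0.16 at 30 h. That call ended without either BRM014 6 h library (FDR = 0.0914 and 0.0908) or without DMSO 6 h replicate 1 (-0.31, FDR = 0.0874). Zyx, zyxin, was at 211 and 217 CPM in BRM014 6 h, against 191 and 130 CPM in DMSO 6 h, and did not pass (0.42 ± 0.16, FDR = 0.0699), except with library totals (0.51, FDR = 0.0250) among the scalings.

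The LIM-only proteins FHL1, FHL2 and FHL3 bind actin structures and transcription factors, and FHL2 is known as an SRF partner. Fhl1 had 1.28 and 1.58 CPM in BRM014 6 h, against 1.63 and 2.91 CPM in DMSO 6 h, and 1.45 and 1.56 CPM in BRM014 30 h (27 and 48 counts), against 6.41 and 9.41 CPM in DMSO 30 h (118 and 215 counts). Its 4 levels with BRM014 ran from 1.28 to 1.58 CPM, and the DMSO level was higher at 30 h. The log2 fold change was -0.65 ± 0.35 at 6 h (FDR = 0.208) and -2.39 ± 0.31 at 30 h (FDR = 6.14e-05). The difference of -1.73 ± 0.48 passed narrowly (FDR = 0.0463) and was lost under 7 of 15 alternatives, with -1.40 (FDR = 0.148) without DMSO 6 h replicate 1, -1.57 (FDR = 0.202) without BRM014 6 h replicate 2, -1.87 (FDR = 0.0973) without BRM014 6 h replicate 1, -1.69 (FDR = 0.0998) and -1.79 (FDR = 0.123) without BRM014 30 h replicate 1 and replicate 2, -1.46 (FDR = 0.110) without DMSO 30 h replicate 2, and FDR = 0.0663 with limma-voom. Fhl3 was at 19.6 and 24.3 CPM in BRM014 6 h, against 41.1 and 37.6 CPM in DMSO 6 h, and at 22.0 and 24.2 CPM in BRM014 30 h, against 41.8 and 38.6 CPM in DMSO 30 h. It was lower at both times without overlap (-0.84 ± 0.13, FDR = 0.000405, and -0.79 ± 0.13, FDR = 0.000358). Fhl2 did not pass, with 0.14 and -0.02.

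Abi3 encodes an Abl interactor that can join the WAVE complex, which drives branched actin assembly. It had 0.462 and 0.171 CPM in BRM014 6 h (9 and 4 counts), against 5.18 and 4.99 CPM in DMSO 6 h (102 and 96 counts). At 30 h it had 0.214 and 0.326 CPM with BRM014 (4 and 10 counts), against 11.7 and 10.7 CPM with DMSO (215 and 244 counts). All libraries with more than 10 counts of Abi3 were DMSO libraries, so that it was tested through the groups where it is high. Both treated groups were near the limit of detection while the DMSO level was higher at 30 h, and the log2 fold changes were -4.04 ± 0.36 (FDR = 4.89e-06) and -5.28 ± 0.34 (FDR = 1.27e-07). In the GENCODE M21 annotation, exons of Abi3 overlap those of Gngt2 on the opposite strand. The strand setting of the counting is not given, so it is uncertain to which of the pair reads in the overlap were counted. The share of such reads was not tested. Gngt2 had 11 and 12 counts in BRM014 6 h, against 51 and 40 in DMSO 6 h (-2.11 ± 0.36, FDR = 0.000795), and 3 and 4 counts in BRM014 30 h, against 85 and 136 in DMSO 30 h (-5.17 ± 0.41, FDR = 7.14e-07). The other opposite-strand neighbours of Abi3, Phospho1 and Zfp652, did not pass at either time. In all, 13 of the 37 genes overlap an exon of another gene, 7 of them a protein-coding one on the opposite strand (Abi3, Actn4, Cfl1, Tagln, Tln1, Vcl and Zyx). Ap3m1, opposite Vcl, rose by 0.42 ± 0.11 at 6 h (FDR = 0.0167) and 0.32 ± 0.11 at 30 h (FDR = 0.0404), and Creb3, opposite Tln1, fell by 0.40 ± 0.12 on the log2 scale at 30 h (FDR = 0.0183).

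The effect of BRM014 at 30 h differed from that at 6 h for 6 of the 31 genes (19.4%), against 6.47% of all tested genes. Tpm1, Cald1 and Actn1 had the higher effect at 30 h (3 genes, background 3.89%), and Tnnt2, Srf and Fhl1 the lower (3 genes, background 2.59%). All but Srf and Fhl1 kept this call under the 15 alternatives run. With the added fold condition all 6 remained, against 5.8% of all tested genes. The median difference was 0.09 for the 31 genes and 0.01 for all tested genes.

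Many of these genes also differed between the DMSO 30 h and DMSO 6 h libraries. This comparison shares the DMSO 30 h libraries with the 30 h comparison and the DMSO 6 h libraries with the 6 h comparison. The test of the difference uses both DMSO groups, so these results are not separate observations. At 30 h against 6 h in DMSO, 19 of 31 genes passed (61.3%), against 35.2% of all tested genes, with 4 higher (background 18%) and 15 lower (background 17.2%). Lima1 (0.61 ± 0.14, FDR = 0.00535), Mylk (1.07 ± 0.13, FDR = 9.89e-05), Fhl1 (1.81 ± 0.31, FDR = 0.000766) and Abi3 (1.13 ± 0.24, FDR = 0.00289) were higher. The lower genes included Actn1 (-0.65 ± 0.10, FDR = 0.000408), Flna (-0.62 ± 0.10, FDR = 0.000690), Tnnt2 (-1.02 ± 0.22, FDR = 0.00371) and Zyx (-0.58 ± 0.16, FDR = 0.0119). The count of lower genes was 3 without DMSO 6 h replicate 1 and 7 without DMSO 30 h replicate 2. Mylk, Actn1, Flna, Tln1, Fhl1 and Abi3 kept their calls under every alternative run. Tnnt2 was -0.77 (FDR = 0.0662) and Zyx -0.26 (FDR = 0.234) without DMSO 6 h replicate 1, Tnnt2 was -0.62 (still passing, FDR = 0.0231) and Zyx -0.40 (FDR = 0.0988) without DMSO 30 h replicate 2, and Lima1 was 0.51 (FDR = 0.0572) without DMSO 6 h replicate 1. Tpm1, Cald1 and Actn1 had 837.6, 507 and 418 CPM on average in DMSO 30 h, and 1045, 639 and 655.5 CPM in DMSO 6 h, whereas BRM014 30 h libraries averaged 1433, 617 and 622 CPM and BRM014 6 h libraries 1004, 406 and 534 CPM.

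The wider actin machinery was covered by 7 lists of 129 genes that are not among the 37, of which 127 were in the table (Mrtfa and Mrtfb stand there as Mkl1 and Mkl2) and 104 were tested. At 6 h 14 were higher and 26 lower (38.5%, background 23.8%), and at 30 h 29 were higher and 12 lower (39.4%, background 35.9%). Their median was -0.08 at 6 h and 0.08 at 30 h. For the difference between the times 12 were higher and 2 lower (13.5%, background 6.47%, of which 3.89% higher and 2.59% lower). At most 3 genes of each of 6 lists are named, those with the largest changes that passed.

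Of 18 Arp2/3 and WAVE genes, which build branched filaments, 3 were higher and none lower at 6 h (16.7% called, background 23.8%), and 3 were higher and 1 lower at 30 h (22.2%, background 35.9%). Both shares were below those of all tested genes. Abi2, the WAVE subunit related to Abi3, rose (0.56 ± 0.12, FDR = 0.00546, and 0.95 ± 0.12, FDR = 5.60e-05), and its 6 h call ended without BRM014 6 h replicate 2 (0.45, FDR = 0.0859). Its mean was 46.7 CPM in BRM014 30 h, against 24.2 CPM in DMSO 30 h, the opposite direction to Abi3. Arpc5l, an Arp2/3 subunit, fell at 30 h (-0.50 ± 0.10, FDR = 0.00149), and Wasf1, a WAVE subunit, rose at 30 h (0.37 ± 0.13, FDR = 0.0325), a call that ended without DMSO 30 h replicate 2 (0.25, FDR = 0.220), BRM014 30 h replicate 1 (0.31, FDR = 0.142) or, narrowly, either BRM014 6 h library (FDR = 0.0511 and 0.0518).

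Among 18 genes of monomer binding, capping and turnover, 3 were higher and 3 lower at 6 h (33.3% called, background 23.8%), and 4 were higher and 3 lower at 30 h (38.9%, near the background of 35.9%). Vil1 encodes villin, which severs and bundles filaments in microvilli. It had 4 and 15 counts in BRM014 6 h, against 42 and 66 in DMSO 6 h. At 30 h it had 1 and 9 counts with BRM014, against 105 and 287 with DMSO. Only in the DMSO groups did both libraries exceed the minimum count of the filter. Vil1 was thus tested through the groups where it is high. It fell at both times (-2.65 ± 0.58, FDR = 0.00466, and -5.49 ± 0.59, FDR = 9.96e-06), and without BRM014 6 h replicate 1 the 6 h value was -2.11 and just missed the threshold. Tmsb4x, thymosin beta 4, the main sequestering protein of actin monomers, fell by 0.43 ± 0.13 on the log2 scale at 6 h (FDR = 0.0329) and by 1.54 ± 0.14 at 30 h (FDR = 1.98e-06). It averaged 160 CPM in BRM014 30 h, against 465 CPM in DMSO 30 h. The difference between the times passed (-1.11 ± 0.19, FDR = 0.00350), and the 6 h call ended without either BRM014 6 h library (FDR = 0.162 and 0.147), without DMSO 6 h replicate 2 (-0.27, FDR = 0.256) or with library totals (FDR = 0.0854). Pfn2, a second profilin, rose at 30 h (1.47 ± 0.33, FDR = 0.00341).

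Crosslinking and membrane linkage genes had 8 lower and 1 higher of 16 at 6 h (background 14.4% lower and 9.35% higher), and 5 higher and 3 lower at 30 h (background 16.8% higher and 19.1% lower). Flnc, filamin C, the muscle relative of Flna, was at 130 and 118 CPM in BRM014 6 h, against 260 and 215 CPM in DMSO 6 h. At 30 h it was at 165 and 248 CPM with BRM014, against 73.9 and 61.6 CPM with DMSO. It thus fell at 6 h (-0.94 ± 0.16, FDR = 0.000948) and rose at 30 h (1.61 ± 0.17, FDR = 7.71e-06), and the difference was 2.55 ± 0.23 (FDR = 5.56e-05). The DMSO level of Flnc fell with time (-1.81 ± 0.17, FDR = 1.63e-05). Lcp1, the plastin of blood cells, fell at both times (-2.42 ± 0.52, FDR = 0.00400, and -4.80 ± 0.50, FDR = 7.99e-06). It had 3 and 15 counts in BRM014 6 h, against 36 and 51 in DMSO 6 h. At 30 h it had 4 and 8 counts with BRM014, against 91 and 200 with DMSO. Only in the DMSO groups did both libraries exceed the minimum count of the filter. Lcp1 was thus tested through the groups where it is high. Its 6 h value was -3.81 without BRM014 6 h replicate 2. The immune marker Ptprc was near 0, and the summed immune markers were at 3.85 to 5.24 CPM in BRM014 6 h, 2.15 to 2.46 CPM in BRM014 30 h, 6.96 to 8.06 CPM in DMSO 6 h and 3.76 to 6.36 CPM in DMSO 30 h. Their part in the fall of Lcp1 was not tested. Synpo, synaptopodin, a stress fibre protein, rose at low counts (2.04 ± 0.60, FDR = 0.0244, and 1.83 ± 0.48, FDR = 0.00959), and its calls ended without any single 6 h library at 6 h (1.72 to 2.50, FDR = 0.0616 to 0.152) and without BRM014 30 h replicate 1 (1.17, FDR = 0.105) or DMSO 30 h replicate 1 (1.56, FDR = 0.0556) at 30 h.

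Of 8 non-muscle myosin chain and phosphatase genes, 1 was lower at 6 h (12.5% called, background 23.8%) and 3 were higher at 30 h (37.5%, near the background of 35.9%). Myl12b, a regulatory light chain, rose at 30 h (0.50 ± 0.10, FDR = 0.00141), as did Myl6b (0.49 ± 0.16, FDR = 0.0287; 0.36, FDR = 0.191 without BRM014 30 h replicate 2, and FDR = 0.0636 and 0.114 without DMSO 30 h replicate 1 and replicate 2). Ppp1r12b, a targeting subunit of myosin phosphatase, fell at 6 h (-0.65 ± 0.19, FDR = 0.0248), a call that ended without DMSO 6 h replicate 1 (-0.44, FDR = 0.232) or either BRM014 6 h library (FDR = 0.0731 and 0.188). Focal adhesion and LIM genes had 5 higher and 9 lower of 23 at 6 h (60.9% called, background 23.8%), and 8 higher and 3 lower at 30 h (47.8%, background 35.9%). Ablim1, an actin-binding LIM protein gene, rose (0.83 ± 0.10, FDR = 5.99e-05, and 1.40 ± 0.10, FDR = 3.80e-07). Ajuba, an adaptor at cell junctions, fell (-1.23 ± 0.10, FDR = 1.41e-06, and -0.73 ± 0.09, FDR = 5.25e-05), as did Pdlim2 (-2.37 ± 0.25, FDR = 1.98e-05, and -1.68 ± 0.22, FDR = 5.90e-05).

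Of 22 genes of striated and smooth muscle contraction, 5 were tested, of which 3 were lower at 6 h (60% called, background 23.8%) and 1 at 30 h (20%, background 35.9%). Smtn, smoothelin, was at 53.6 and 59.5 CPM in BRM014 6 h, against 85.6 and 79.6 CPM in DMSO 6 h, and at 46.6 and 48.0 CPM in BRM014 30 h, against 90.7 and 105.8 CPM in DMSO 30 h. It fell at both times (-0.55 ± 0.11, FDR = 0.00232, and -1.06 ± 0.11, FDR = 6.85e-06) and made up nearly all of the summed smooth muscle markers, which were 46.7 to 106 CPM. The troponin genes Tnnc1 and Tnni2 fell at 6 h (-2.23 ± 0.39, FDR = 0.00102, and -4.12 ± 0.86, FDR = 0.00395). Tnni2 had 1 and 2 counts in BRM014 6 h, against 34 and 17 in DMSO 6 h, the only libraries with more than 10 counts, so that it was tested through the group where it is high. It was not tested under the filter of 1 CPM in at least 4 libraries, and its call ended without DMSO 6 h replicate 1 (-3.53, FDR = 0.0543). At 30 h Tnnc1 had -0.72 (FDR = 0.165), and Tnni2 was at 0 in both BRM014 libraries, against 7 and 1 counts in DMSO 30 h.

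**Figure D4:**
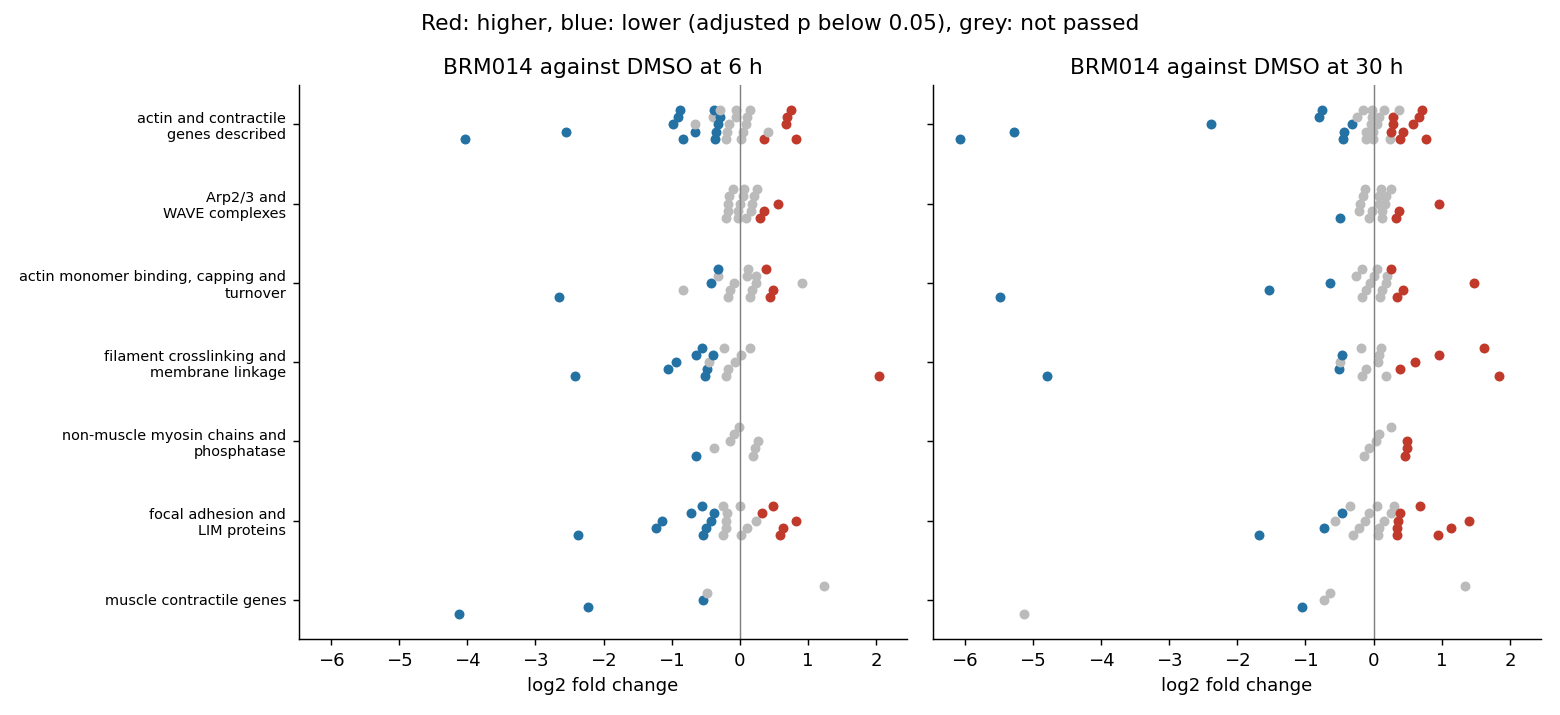
Log2 fold changes of BRM014 against DMSO at 6 h (left) and 30 h (right) for each tested gene of the 37 (top row) and of 6 of the 7 wider lists, red where higher, blue where lower and grey where the test was not passed. The row of crosslinking genes has 8 blue points of 16 at 6 h and 5 red points at 30 h.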

How the data were processed

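The deposited table holds raw read counts per gene, made by the authors before deposit from stranded total RNA libraries, per the labels' protocols. The submitters' processing notes name Subread, featureCounts, SAMtools 0.1.19 and build mm9, without their roles. Strand setting and handling of reads with several matches are not given in the sources used here. All 8 libraries (17859693 to 29955366 counts) entered 1 fit of 4 group means with edgeR 4.0.16 (limma 3.58.1, R 4.3.3), using TMM factors, filterByExpr with a minimum count of 10, and the quasi-likelihood test. P-values were adjusted by Benjamini-Hochberg over 11835 genes, with a threshold of 0.05, and the standard error is the log2 fold change divided by the square root of F. The procedure was tried on simulated data for the comparison of BRM014 with DMSO at 6 h only, with the spread between libraries taken from these data. Members and lists were chosen with earlier results of these data known. Values per library are given for members past the threshold with a log2 fold change of at least 0.58 in size and for Actb, Actg1, Acta2 and Srf, and, chosen after their values were seen, for Actn1, Myl6, Mylk, Zyx and some counts of Tpm2, and of each wider list the 3 genes with the largest changes past the threshold are named. Alternatives were DESeq2 1.42.0, limma-voom, RLE factors, library totals, no filter on low counts, a minimum of 1 CPM in 4 or more libraries, only the libraries of a comparison, a replicate block, and leaving out each library. Promoter windows are from RefSeq (GRCm38.p6) and gene overlaps from GENCODE M21. No coordinates were converted between builds. The values of 1 of the 7 wider lists are not reported here, although its genes are in the counts over all lists.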

Additional observations from a re-analysis of the deposited data

Results flagged for a closer look

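For 6 genes the effect of BRM014 at 30 h minus that at 6 h passed the test of the difference, and no explanation was tested. Tpm1 differed by 0.83 on the log2 scale, Cald1 by 0.94 and Actn1 by 0.87. Tnnt2 differed by -3.52, Srf by -0.77 and Fhl1 by -1.73 on the same scale.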

How the results depend on the processing

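For the calls made among the 31 genes, 938 values were computed under the alternatives, of which 830 still passed and 108 did not, and none of these reversed sign. Calls gained are outside that count. With library totals, Zyx at 6 h, Myh9 at 30 h, Actg1 for the difference and Pdlim5 for time in DMSO passed in addition. Leaving out each library in turn gave 3 to 6 higher and 7 to 13 lower members at 6 h (1415 to 3144 of all genes called), and 6 to 9 higher and 6 to 9 lower at 30 h (3068 to 4192 genes). The same ranges were 3 to 5 higher and 1 to 4 lower for the difference between the times (351 to 921 genes), and 3 to 4 higher and 3 to 17 lower for time in DMSO (2331 to 4223 genes). For the difference, members higher were 7 without the filter and 6 with DESeq2, members lower were 5 without the filter, and the genes called were 1309 without the filter, against 766. With library totals, 1691 genes were higher and 1391 lower at 6 h (45.1% lower, against 60.7% with TMM), and 2754 and 1424 for time in DMSO (34.1% lower, against 48.8%). Their medians moved to 0.07 and 0.10. The cause of these changes was not tested. Groups share replicate numbers. The deviations of replicate 1 from its group mean, taken over the tested genes, correlated between groups at 0.011 to 0.201. The numbers were not taken to pair the samples, although these values, all positive, do not show that no pairing exists. With a replicate block, members were 6 higher and 13 lower at 6 h, 10 and 8 at 30 h, 7 and 4 for the difference (1237 genes called), and 5 and 18 for time in DMSO. Duplicates and low counts (Tnnt2, Abi3, Fhl1) limit the precision.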
